A study of Schizosaccharomyces pombe with 8 samples.

Results

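The epistasis between the deletions of mot2 and mamRNA was measured in RNA from fission yeast (Schizosaccharomyces pombe), as the interaction of both deletions on the log2 scale. For each feature it is (mot2∆ mamRNA∆ minus mamRNA∆) minus (mot2∆ minus wt), that is, the change that loss of mot2 made in cells without mamRNA minus the change it made in cells with mamRNA. It takes in all 8 libraries of the study, 2 for each of 4 genotypes. All 8 came from homothallic h90 cells grown in minimal medium (EMM) and taken in exponential phase. The wt carried neither deletion. Per the labels, both single mutants carried their deletion with a natMX cassette, mot2∆ as mot2::natMX and mamRNA∆ as mamRNA::natMX. The double mutant mot2∆ mamRNA∆ carried other cassettes, mamRNA::hygTK and mot2::kanMX, so the combination of deletions and the change of cassettes cannot be told apart. The labels do not say whether the 2 libraries of a genotype came from separate cultures, and the p-values therefore measure only the spread between these libraries. Of 6338 sense features listed, 5988 passed the filter on low counts and had an interaction.

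Mot2 is an E3 ubiquitin ligase subunit of Ccr4-Not, the complex that also holds the cell's main deadenylases. In growing fission yeast it keeps the level of Mei2 low. Mei2 is an RNA-binding protein that drives meiosis and inhibits Mmi1, a YTH-domain protein that directs meiotic transcripts to the nuclear exosome. The long non-coding RNA mamRNA is bound by Mmi1 and Mei2 and is transcribed beside the small nucleolar RNA snoU14. Comparing the mutants asked whether a change made by loss of Mot2 needs mamRNA. An interaction near 0 means that both changes added up in the double mutant. An interaction below 0 means that the double mutant lay under the sum of the single changes, and one above 0 that it lay over that sum. The sign alone does not say whether a single change was lost or the double mutant moved away from wt. For that the level in each genotype is needed.

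Total counts ranged from 22381332 to 34667534 per library, and the 2 libraries of each genotype differed beyond counting error, with a chi-square of 7.12 to 47.4 per degree of freedom. The level of a feature is given as CPM, the count relative to library size scaled by the trimmed mean of M values (TMM). The deleted gene checks the labels: mot2 was at 22.3 and 23.4 CPM in wt, 4.11 and 4.26 in mot2∆, 18.9 and 18.8 in mamRNA∆, against 2.72 and 2.77 in the double mutant. The mot2 counts were low in the 4 libraries labelled as lacking it, and its interaction was -0.33 (SE 0.16; adjusted p = 0.114). The mamRNA feature was not analysed here, so nothing checks that deletion in the same way, while its neighbour snoU14 had an interaction of 0.01 (SE 0.20; adjusted p = 0.977). Whether reads were counted by strand is not stated, and in RefSeq's annotation of assembly ASM294v3, 33 of the 150 features named by rule overlap another coding gene. Among them are mei4 (cdk9), spo5 (pcf1), crs1 (ade9), sme2 (mrpl8), rec10 (zip1), dhc1 (hca4), mok14 (mib1), mam3 (SPAP11E10.01), lkh1 (trz1), rep1 (mmp1), clr4 (meu6), gpm1 (mug106), gpx1 (gem7), dbp3 (npg1), sda1 (gid9), erg32 (mis19), rps2202 (mug165), myo51 (est1), sod2 (dsc2), SPAC3F10.09 (map3) and tgp1 (SPBC1271.10C), and reads of the gene in brackets cannot be told apart from theirs.

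A feature was called where its edgeR adjusted p lay under 0.05 and its log2 value lay beyond 1 in either direction. By that rule 658 sense features had an interaction, 11.0% of those tested. Of these, 387 lay below 0, where the double mutant was lower than the sum of the single changes (6.46%), and 271 lay above 0 (4.53%). In comparison with wt, 8.62% of sense features were called in mot2∆, 4.16% in mamRNA∆ and 8.95% in the double mutant. The double mutant differed by a call from mot2∆ in 6.61% of sense features and from mamRNA∆ in 9.99%. The median interaction of all sense features was 0.01, and it moved to -0.11 when libraries were scaled by total counts, which also moved the calls to 203 above 0 and 469 below 0.

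Called interactions were sorted by what the single mutants did. In 122 features a mot2∆ change was suppressed: mot2∆ differed from wt by a call, and the double mutant moved back from mot2∆ by a call. In 107 of them mot2∆ had raised the feature and in 15 it had lowered it. The double mutant was no longer called against wt in 94 of the 122, kept part of the change in 13, and lay past wt on the other side in 15. A mamRNA∆ change was suppressed in the same sense in 94 further features, 63 raised and 31 lowered by mamRNA∆, and 76 of these were not called in the double mutant. A feature that met both definitions, such as gsf2, was counted only among the 122, so 94 is not the count of all suppressed mamRNA∆ changes. The 122 held 17 features called higher and 9 called lower in mamRNA∆ against wt. A synergistic change was found in 75 features, 47 lower and 28 higher, of which 67 were called against wt in the double mutant and in neither single mutant. The remaining 367 called interactions met none of these definitions. In 323 of the 367 both single mutants lay on the side of wt opposite to the interaction, and in 131 no 2 genotypes differed by a call, a description made after the size of this class was seen. Another 133 features changed in a single mutant and were additive, with a 95% interval of the interaction inside -1 and 1. That interval need not hold 0, so additive here means within 1 log2 unit of the sum of the single changes. A further 201 changed in a single mutant but had an interval too wide or too far from 0 to be put there. These classes rest on contrasts that share libraries, so their counts are a description.

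**Figure D1:**
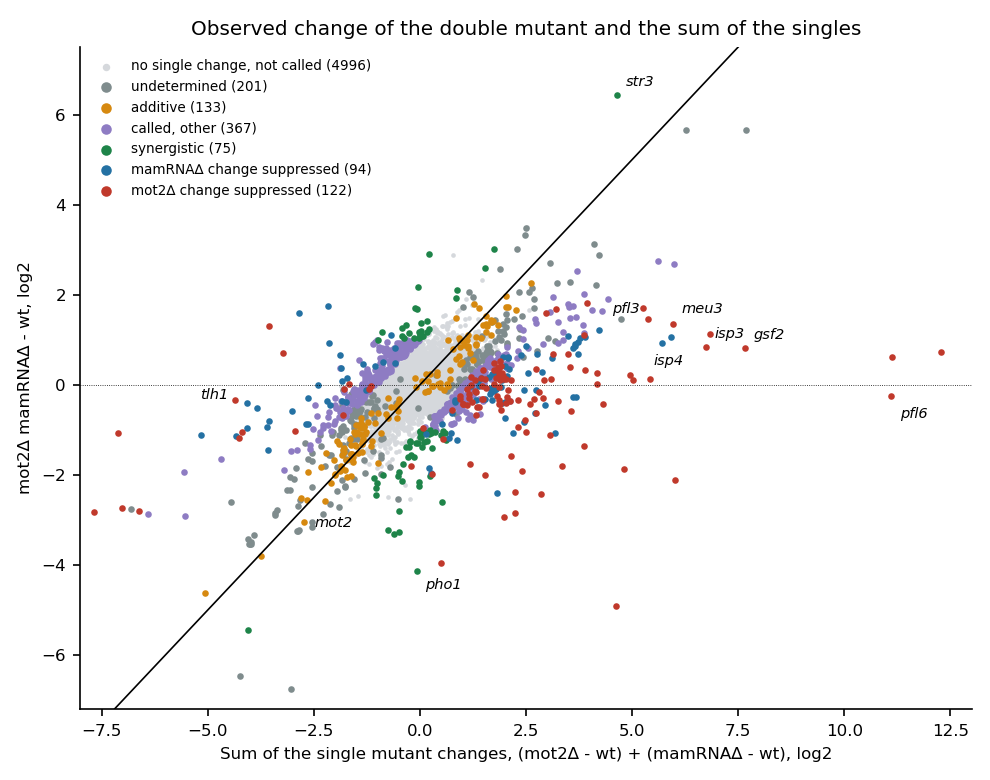
Each point is 1 of 5988 sense features, with the sum of both single mutant log2 changes on the x axis and the log2 change of mot2∆ mamRNA∆ against wt on the y axis; the line marks additivity and colours mark the classes, with the number of features in each. The 122 features with a suppressed mot2∆ change (red) lie mainly far to the right and near 0 on the y axis, pho1 lies far below the line and str3 above it.

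**Figure D2:**
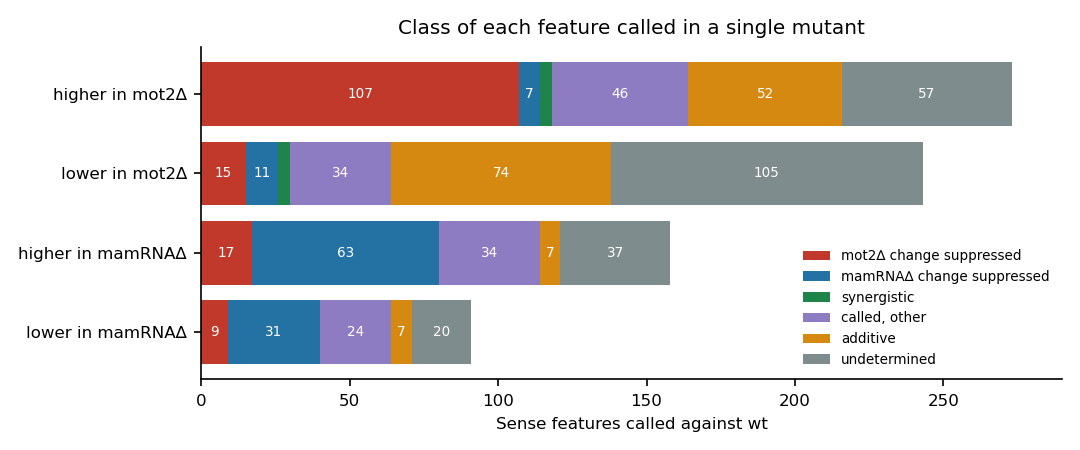
Bars give the number of sense features called against wt in a single mutant, split by class of the interaction. Of 273 features higher in mot2∆, 107 had that change suppressed and 52 were additive, whereas of 243 lower in mot2∆, 15 were suppressed and 74 additive.

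Cell surface flocculins had the lowest median interaction of the 38 gene lists described here. Over all sense features 11.0% were called, the share to set beside the counts of each list. Flocculins are glycoproteins that make fission yeast cells stick together, and gsf2 encodes the dominant one. Of 10 tested members of the list, 8 had an interaction below 0 and 1 above it, with a median of -3.86. The transcript gsf2 was at 286 and 254 CPM in wt, 5258 and 5028 in mot2∆, 2862 and 2846 in mamRNA∆, against 473 and 482 in the double mutant. Each single deletion raised gsf2, by 4.25 (SE 0.11) and 3.40 (SE 0.10), and in the double mutant 0.82 (SE 0.093) was left, which was not called, so that its interaction was -6.83 (SE 0.14; adjusted p = 5.35e-12). The flocculin genes pfl6, SPBC1348.08c and pfl9 were also highest in mot2∆ and next highest in mamRNA∆, at lower levels. The flocculin pfl6 was at 0.61 and 0.289 CPM in wt, 67.7 and 84.3 in mot2∆, 5.43 and 5.51 in mamRNA∆, against 0.272 and 0.462 in the double mutant, with an interaction of -11.35 (SE 0.34; adjusted p = 2.02e-10). Its near copy SPBC1348.08c was at 0.141 and 0.362 CPM in wt, 64.9 and 88.4 in mot2∆, 4.78 and 4.63 in mamRNA∆, against 0.272 and 0.627 in the double mutant, with an interaction of -11.55 (SE 0.44; adjusted p = 2.19e-09). For pfl9 the levels were 0.188 and 0.398 CPM in wt, 54 and 73.8 in mot2∆, 3.85 and 2.91 in mamRNA∆, against 0.212 and 0.759 in the double mutant, and the interaction was -10.50 (SE 0.53; adjusted p = 2.2e-08). In pfl6, SPBC1348.08c and pfl9 the wt and double mutant libraries were all under 1 CPM, far below both mot2∆ libraries. Levels that low cannot show how closely the double mutant matched wt. These genes have repeated copies near chromosome ends, reads may be shared between copies, and the wt and double mutant values rest on few counts.

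The other flocculins differed in how much of the change was left. The interaction was -4.16 (SE 0.095) for pfl4, -1.49 (SE 0.10) for pfl5 and -3.56 (SE 0.20) for fta5, which RefSeq lists as pfl8, and in fta5 a change of 1.69 (SE 0.15) against wt was left in the double mutant. The flocculin pfl3 was at 193 and 176 CPM in wt, 739 and 843 in mot2∆, 865 and 807 in mamRNA∆, against 559 and 593 in the double mutant. It was called as raised in all 3 mutants, and its interaction of -2.64 (SE 0.13; adjusted p = 1.96e-08) says that the changes did not add up. The list also held pfl2, which went the other way with an interaction of 1.53 (SE 0.17; adjusted p = 1.41e-05). It held pfl7 too, which loss of mot2 lowered whether or not mamRNA was present, with an interaction of 0.19 (SE 0.69; adjusted p = 0.841). Flocculation is controlled by transcription factors, and 3 of 7 tested regulators had an interaction below 0. The MADS-box activator mbx2 was at 64.1 and 63.5 CPM in wt, 128 and 125 in mot2∆, 130.2 and 129 in mamRNA∆, against 49.1 and 49.3 in the double mutant. The mbx2 level in mot2∆ lay above wt by 0.98 (SE 0.062), just short of the threshold, and in mamRNA∆ by 1.02 (SE 0.062), while the double mutant lay under wt, giving an interaction of -2.38 (SE 0.088; adjusted p = 1.71e-09). The CSL factor cbf12 was raised by mamRNA∆ alone, by 1.17 (SE 0.094), and not called in the double mutant, with an interaction of -1.41 (SE 0.13; adjusted p = 4.8e-06). The LAMMER kinase gene lkh1, a repressor of flocculation, had an interaction of -1.16 (SE 0.18; adjusted p = 0.000218), which fell short of the fold threshold without wt replicate 2 and without mot2∆ replicate 1, where it was -0.98.

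**Figure D3:**
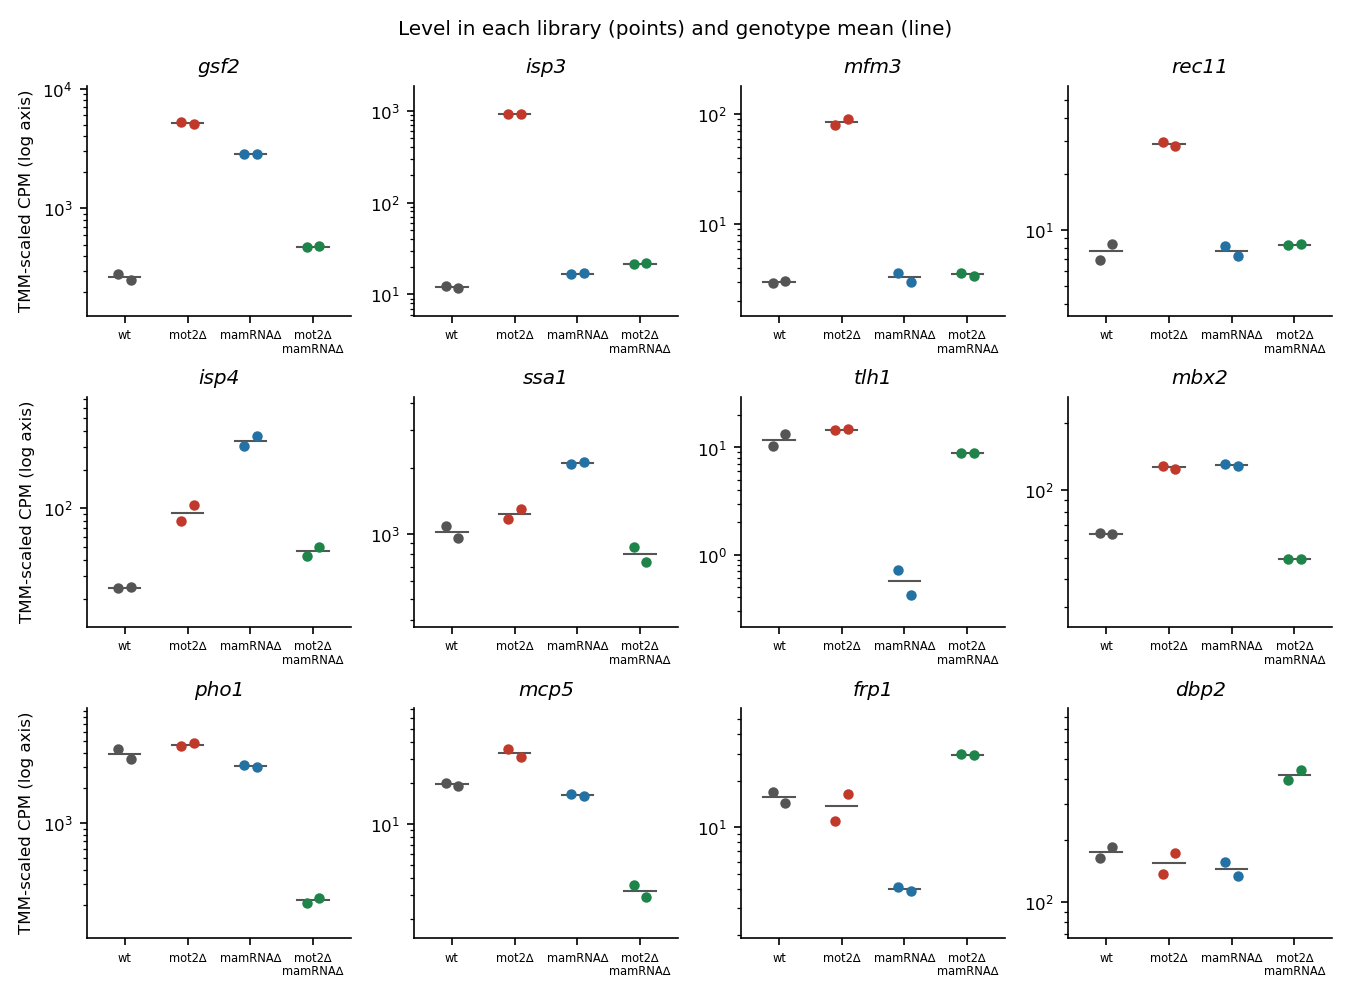
TMM-scaled CPM (log axis) of 12 genes in each of 8 libraries, with points for libraries and a line for the mean of the 2 libraries of a genotype. The genes gsf2, isp3, mfm3 and rec11 were high in mot2∆ and far lower in mot2∆ mamRNA∆, where gsf2 and isp3 stayed above wt. The genes isp4, ssa1 and tlh1 differed from wt most in mamRNA∆, and mbx2 was above wt in both single mutants. Levels of pho1 and mcp5 were lowest, and those of frp1 and dbp2 highest, in mot2∆ mamRNA∆.

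Many meiotic transcripts carry the motif that Mmi1 binds and are eliminated in growing cells. All 7 tested Mmi1 targets had a called interaction below 0, with a median of -1.75. The call for sme2, the gene of meiRNA, was lost without wt replicate 2, where it was -0.93. The meiotic regulator spo5 was at 2.07 and 2.06 CPM in wt, 77 and 69.6 in mot2∆, 2.83 and 2.17 in mamRNA∆, against 2.42 and 2.08 in the double mutant. Its rise in mot2∆ was not seen in the double mutant, and its interaction was -5.29 (SE 0.23; adjusted p = 6.49e-09). The meiotic cohesin gene rec8 was not called against wt in the double mutant either (-1.45, SE 0.23, adjusted p = 0.000256). The RNA sme2 (-1.04, SE 0.15, adjusted p = 0.000117) differed from wt by -0.97 (SE 0.11) in the double mutant. This was just short of the fold threshold and opposite in sign to its rise in mot2∆. The forkhead factor gene mei4 was at 8.88 and 9.52 CPM in wt, 20.3 and 19.3 in mot2∆, 6.09 and 6.36 in mamRNA∆, against 4.42 and 3.5 in the double mutant, so that the double mutant lay under wt as well as under mot2∆, with an interaction of -1.75 (SE 0.18; adjusted p = 9.94e-06). The cyclin gene crs1 was higher than wt in all 3 mutants, by 2.65 (SE 0.20) in mot2∆, 1.21 (SE 0.22) in mamRNA∆ and 2.01 (SE 0.21) in the double mutant, which gave an interaction of -1.85 (SE 0.27; adjusted p = 0.000146). For 2 targets neither single mutant was called and the double mutant fell. The dynein anchor gene mcp5 was at 20.2 and 19.1 CPM in wt, 35.8 and 31.4 in mot2∆, 16.6 and 16.1 in mamRNA∆, against 3.54 and 2.91 in the double mutant, an interaction of -3.11 (SE 0.16; adjusted p = 2.66e-08). In mot2∆ mcp5 lay above wt by 0.78 (SE 0.099; adjusted p = 3.44e-05), which missed only the fold threshold, so its interaction takes in the loss of that rise. The dynactin gene ssm4 was at 7.47 and 7.05 CPM in wt, 8.85 and 7.48 in mot2∆, 5.76 and 6.64 in mamRNA∆, against 2.93 and 2.97 in the double mutant, an interaction of -1.24 (SE 0.20; adjusted p = 0.000338). In the double mutant, 1 of the 7 targets was called higher than wt, 3 were called lower and 3 were not called.

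Spore genes are made late, when meiotic products are wrapped in a spore wall. Of 24 tested sporulation genes 6 were called, all below 0, with a median of -0.51. The spore coat gene isp3 was at 12.3 and 11.7 CPM in wt, 929 and 909.9 in mot2∆, 16.7 and 16.9 in mamRNA∆, against 21.2 and 21.8 in the double mutant. The 2 mot2∆ libraries lay far above the other 6, and the interaction was -5.91 (SE 0.11; adjusted p = 2.96e-12). In the double mutant isp3 stayed above wt by 0.84 (SE 0.077), short of the fold threshold. The spore wall gene meu10 was at 28.1 and 27.1 CPM in wt, 306 and 314 in mot2∆, 48.4 and 49.1 in mamRNA∆, against 21.2 and 19.5 in the double mutant, with an interaction of -4.75 (SE 0.10; adjusted p = 5.35e-12). In the double mutant meu10 lay below mamRNA∆ as well as mot2∆, with a difference of -1.26 (SE 0.071) from mamRNA∆. The ascus wall glucanase gene agn2 kept a change of 1.10 (SE 0.096) against wt, and its interaction was -2.76 (SE 0.13; adjusted p = 1.58e-08). The spore wall glucan synthase gene mok14 had an interaction of -1.50 (SE 0.13; adjusted p = 2.58e-06), spo2 one of -1.26 (SE 0.12; adjusted p = 4.66e-06), and spo5 is given above. Other spore wall genes were not called: the interaction was -0.92 (SE 0.11; adjusted p = 2.72e-05) for bgs2, -0.78 (SE 0.11; adjusted p = 0.000115) for mde10 and -0.27 (SE 0.12; adjusted p = 0.0812) for meu14.

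Recombination and nuclear movement followed. Of 18 tested recombination and cohesin genes 6 were called, all below 0 (median -0.77), and in all 6 a mot2∆ change was suppressed. The cohesin gene rec11 was at 6.9 and 8.43 CPM in wt, 29.6 and 28.1 in mot2∆, 8.17 and 7.23 in mamRNA∆, against 8.32 and 8.35 in the double mutant, and its interaction was -1.79 (SE 0.17; adjusted p = 5.13e-06). The linear element gene rec10 had an interaction of -1.80 (SE 0.19; adjusted p = 1.22e-05) and the meiotic kinase gene mek1 one of -1.56 (SE 0.32; adjusted p = 0.00178). The monopolar attachment gene moa1 was at or under 0.464 CPM in every library and the meiotic pairing gene meu13 at or under 4.16 CPM, with interactions of -3.61 (SE 0.72; adjusted p = 0.0015) and -2.28 (SE 0.49; adjusted p = 0.00238). The recombinase gene dmc1 (-0.84, SE 0.11, adjusted p = 4.68e-05) and rec7 (-0.88, SE 0.12, adjusted p = 9.11e-05) passed the adjusted p but not the fold threshold. Of 9 tested genes listed for horsetail movement and bouquet formation, in which dynein pulls the nucleus of meiotic prophase cells back and forth, 5 were called below 0 (median -1.12). They were mcp5 and ssm4 above, the dynein heavy chain gene dhc1 (-1.40, SE 0.093, adjusted p = 2.67e-07), bqt2 (-1.85, SE 0.33, adjusted p = 0.00061) and mcp6 (-1.12, SE 0.19, adjusted p = 0.000431). The dhc1 transcript was at 126 and 119 CPM in wt, 253 and 256 in mot2∆, 159.5 and 171 in mamRNA∆, against 134 and 128 in the double mutant, higher in mot2∆ than in any other genotype. The list also took in hrs1, which RefSeq names as a histidine tRNA ligase and which was not called.

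The wider set of genes named mug or meu, for meiotic upregulation, held 128 tested members with a median of -0.34, of which 28 were called below 0 and 1 above. Of the 28, the non-coding RNA meu3 was at 5.82 and 5.75 CPM in wt, 419.7 and 454 in mot2∆, 5.07 and 4.52 in mamRNA∆, against 14.6 and 15 in the double mutant. It kept a rise of 1.35 (SE 0.094) over wt in the double mutant, and its interaction was -4.61 (SE 0.13; adjusted p = 1.31e-10). The non-coding RNA meu19 was at 8.69 and 9.12 CPM in wt, 368 and 399.7 in mot2∆, 8.99 and 8.33 in mamRNA∆, against 24.1 and 24.8 in the double mutant, with an interaction of -3.93 (SE 0.12; adjusted p = 1.93e-10), and meu7, which encodes an alpha-amylase, was not called against wt in the double mutant (-3.03, SE 0.10, adjusted p = 7.65e-10). The member above 0 was mug106, which overlaps gpm1 (1.24, SE 0.11, adjusted p = 3.05e-06). At the entry to meiosis, 3 of 9 tested regulators were called, all below 0. The Pat1 inhibitor gene mei3 was at 0.704 and 0.904 CPM in wt, 6.7 and 5.33 in mot2∆, 0.725 and 0.763 in mamRNA∆, against 0.938 and 1.16 in the double mutant, with an interaction of -2.39 (SE 0.38; adjusted p = 0.000273). For the factor gene ste11 the interaction was -1.19 (SE 0.23; adjusted p = 0.00121) and for rep1 -1.19 (SE 0.15; adjusted p = 6.3e-05), although the call for ste11 was lost without mot2∆ replicate 1 (-0.92). The mei2 transcript was at 548 and 409 CPM in wt, 1091 and 909 in mot2∆, 352 and 361 in mamRNA∆, against 458 and 409 in the double mutant. Its interaction of -0.78 (SE 0.18; adjusted p = 0.00383) did not pass the fold threshold, and passed it in 1 of 15 alternatives, without wt replicate 1 (-1.03). The interval of mei2 was -1.18 to -0.39, and the long non-coding RNA omt3 was in the same position (-0.84, SE 0.093, adjusted p = 1.64e-05).

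Of 25 tested pheromone and mating genes, 15 were called higher in mot2∆. In the double mutant 1 was called against wt, and it was lower. The interaction was called below 0 in 8, and its median was -0.78. The M-factor gene mfm3 was at 2.96 and 3.08 CPM in wt, 80.5 and 90 in mot2∆, 3.66 and 3.02 in mamRNA∆, against 3.6 and 3.43 in the double mutant, with an interaction of -4.73 (SE 0.19; adjusted p = 3.06e-09). The M-factor gene mfm1 was at 26.1 and 18.8 CPM in wt, 311 and 357 in mot2∆, 14.6 and 11.7 in mamRNA∆, against 36.1 and 35.3 in the double mutant, with an interaction of -2.46 (SE 0.19; adjusted p = 1.09e-06). The 2 mot2∆ libraries of both genes stood apart from the other 6. The agglutinin genes map4 (-3.18, SE 0.17, adjusted p = 3.83e-08) and mam3 (-2.47, SE 0.13, adjusted p = 2.36e-08), the P-factor gene map2 (-1.90, SE 0.089, adjusted p = 1.3e-08), its receptor gene mam2 (-1.50, SE 0.16, adjusted p = 1.37e-05), the P-factor protease gene sxa2 (-1.60, SE 0.12, adjusted p = 8.84e-07) and the signalling regulator gene rgs1 (-1.28, SE 0.11, adjusted p = 2.71e-06) completed the 8. Another 4 members were additive, among them ste6, the gene of a Ras guanine nucleotide exchange factor, where a rise of 1.69 (SE 0.085) in mot2∆ and a fall in mamRNA∆ (-1.22, SE 0.094) nearly cancelled in the double mutant (-0.06, SE 0.088), with an interaction of -0.53 (SE 0.13; adjusted p = 0.00426).

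An h90 strain can switch mating type, mate and sporulate, so markers of those cells are given beside these results. The summed level of the 25 pheromone and mating genes was 1783 to 2038 CPM in wt, 4205 to 4231 in mot2∆, 1531 to 1548 in mamRNA∆ and 1742 to 1763 in mot2∆ mamRNA∆. The summed level of 6 spore genes (isp3, meu10, meu14, bgs2, agn2 and mde10) was 204 to 227 CPM in wt, 1695 to 1729 in mot2∆, 298 to 303 in mamRNA∆ and 261 in both double mutant libraries. The summed level of 10 nitrogen starvation genes was 1215 to 1386 CPM in wt, 1852 to 1877 in mot2∆, 1812 to 1996 in mamRNA∆ and 1323 to 1329 in mot2∆ mamRNA∆. Few members carried these sums. Of the 6 spore genes, 3 were called higher than wt in mot2∆. Of the 10 nitrogen starvation genes, 2 were called higher in mot2∆ and 3 in mamRNA∆. Mean isp6 went from 419 CPM in wt to 927 in mot2∆, and mean isp4 from 24.4 in wt to 334 in mamRNA∆. No member of the 3 lists was at 0 counts in any genotype. In bulk RNA, more cells of a kind and more RNA per cell cannot be told apart, and the part of such cells in the interactions was not tested.

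Among genes of nitrogen starvation, mamRNA∆ changes were suppressed in isp4, isp5 and isp7. Of 10 tested nitrogen starvation genes 5 were called, all below 0, with a median of -0.80. The oligopeptide transporter gene isp4 was at 24.1 and 24.6 CPM in wt, 80.2 and 106 in mot2∆, 303 and 364 in mamRNA∆, against 42.9 and 50.2 in the double mutant. It rose in both single mutants, most in mamRNA∆ (3.78, SE 0.14), and the interaction was -4.77 (SE 0.19; adjusted p = 2.56e-09). The amino acid transporter gene isp5 was at 12.8 and 12.5 CPM in wt, 14.9 and 19.3 in mot2∆, 31.3 and 43.6 in mamRNA∆, against 8.32 and 6.8 in the double mutant, with an interaction of -2.74 (SE 0.24; adjusted p = 2.89e-06). The oxygenase gene isp7 was raised by mamRNA∆ alone, by 1.70 (SE 0.089), and its interaction was -1.34 (SE 0.12; adjusted p = 4.09e-06). By contrast the vacuolar protease gene isp6 was raised by mot2∆ alone, by 1.15 (SE 0.097), with an interaction of -1.43 (SE 0.14; adjusted p = 5.11e-06). The ammonium transporter gene amt1 completed the 5 (-1.26, SE 0.11, adjusted p = 3.67e-06). Of 7 tested amino acid permeases, 2 were called below 0 and 1 above. The proline transporter gene put4 was at 34.1 and 30.1 CPM in wt, 87.9 and 116 in mot2∆, 149.7 and 186 in mamRNA∆, against 102 and 101 in the double mutant, as high in the double mutant as in mot2∆ alone, with an interaction of -2.39 (SE 0.18; adjusted p = 7.9e-07). The permease gene per1 was also called higher than wt in all 3 mutants (-2.36, SE 0.15, adjusted p = 1.62e-07), and the arginine and lysine transporter gene cat1 was higher in the double mutant than in either single mutant (1.48, SE 0.12, adjusted p = 1.31e-06).

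Called interactions of sugar transport, heat shock and stress genes were below 0. Of 8 tested hexose transporters 5 were called, all below 0. The other 3 lay above 0, and the median of the 8 was -1.14. The gene ght3 was at 70.3 and 51.6 CPM in wt, 678 and 431 in mot2∆, 99 and 105 in mamRNA∆, against 234 and 193 in the double mutant, with an interaction of -2.12 (SE 0.26; adjusted p = 3.81e-05). The gene ght6 was at 50.5 and 57.1 CPM in wt, 165 and 139.9 in mot2∆, 17.2 and 16 in mamRNA∆, against 16.6 and 14.4 in the double mutant, so the double mutant had the level of mamRNA∆ and none of the rise of mot2∆, with an interaction of -1.59 (SE 0.14; adjusted p = 3.65e-06). For ght1 the interaction was -1.25 (SE 0.24; adjusted p = 0.000992), for ght4 -1.25 (SE 0.18; adjusted p = 0.000119) and for ght5 -1.03 (SE 0.18; adjusted p = 0.000561). Of 16 tested chaperones 5 were called, all below 0. A further 6 lay above 0 without a call. The Hsp70 gene ssa1 was at 1078 and 958 CPM in wt, 1166 and 1297 in mot2∆, 2093 and 2142 in mamRNA∆, against 865 and 739 in the double mutant. Its rise in mamRNA∆ was not seen in the double mutant, with an interaction of -1.68 (SE 0.15; adjusted p = 2.82e-06). The genes hsp16 (-1.63, SE 0.14, adjusted p = 1.8e-06), hsp104 (-1.45, SE 0.13, adjusted p = 3.15e-06), hsp9 (-1.14, SE 0.14, adjusted p = 3.93e-05) and psi1 (-1.07, SE 0.096, adjusted p = 3.4e-06) had the same order, highest in mamRNA∆ and lowest in the double mutant. Of 11 tested genes of the Sty1-Atf1 stress response 4 were called, all below 0, with a median of -0.90. The gluconeogenic gene fbp1 was at 47.2 and 44.1 CPM in wt, 76.6 and 62.1 in mot2∆, 40.9 and 50.6 in mamRNA∆, against 20.6 and 18.5 in the double mutant, lowest in the double mutant, with an interaction of -1.83 (SE 0.16; adjusted p = 3.35e-06). The catalase gene ctt1 (-1.13, SE 0.17, adjusted p = 0.000198), the glutathione peroxidase gene gpx1 (-1.18, SE 0.12, adjusted p = 7.11e-06) and the trehalase gene ntp1 (-1.16, SE 0.12, adjusted p = 1.11e-05) were the others, and ctt1 fell to -0.92 without mot2∆ replicate 1 and was no longer called.

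**Figure D4:**
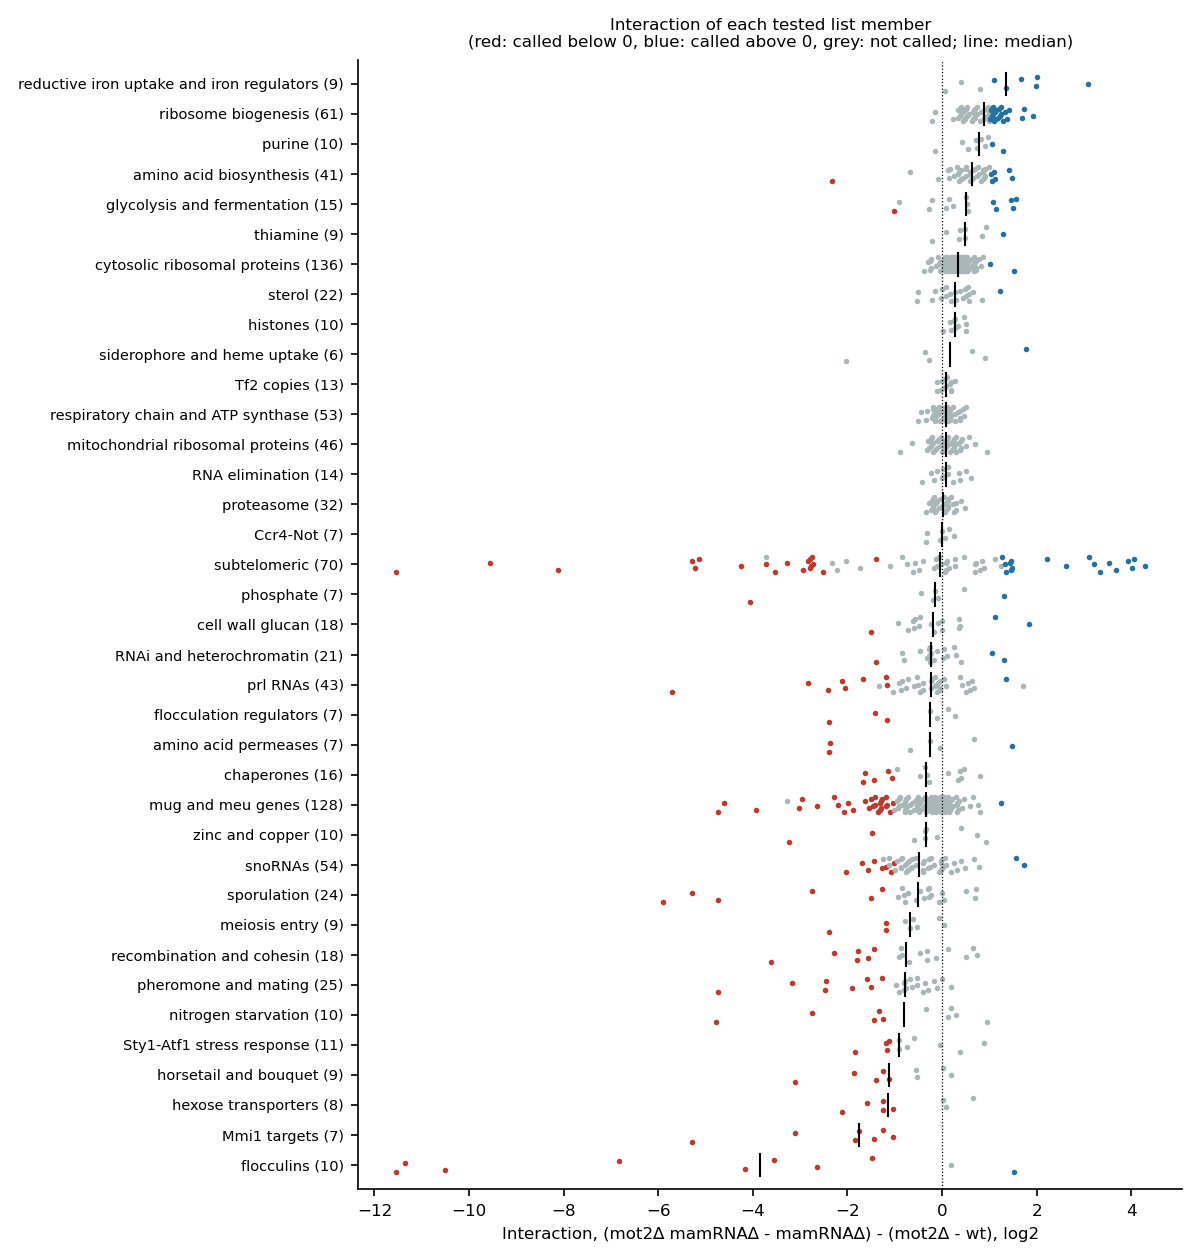
Interaction (log2) of each tested member of 37 gene lists, with the number of members in brackets and a black line at the median; red points were called below 0, blue points above 0 and grey points were not called. Medians range from -3.86 for the flocculins to 1.35 for reductive iron uptake and iron regulators.

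Among interactions above 0, many transcripts lay under wt in both single mutants. Glycolysis and fermentation had 15 tested members, 5 of them called above 0 and 1 below, with a median of 0.51. The glyceraldehyde-3-phosphate dehydrogenase gene tdh1 was at 17690.0 and 17011 CPM in wt, 11195 and 11619 in mot2∆, 6869 and 6263 in mamRNA∆, against 12064 and 13290.0 in the double mutant. Both single mutants lay under wt, mamRNA∆ lowest, and the double mutant lay above mamRNA∆ and near mot2∆, so that the interaction was 1.55 (SE 0.15; adjusted p = 7.28e-06). An order with wt highest and mamRNA∆ lowest also held for the pyruvate decarboxylase gene pdc101 (1.50, SE 0.17, adjusted p = 2.55e-05), the enolase gene eno101 (1.46, SE 0.15, adjusted p = 9.07e-06) and the phosphoglycerate mutase gene gpm1 (1.13, SE 0.14, adjusted p = 5.06e-05). The other enolase gene, eno102, was called too (1.07, SE 0.19, adjusted p = 0.000755), and gpd3, a second glyceraldehyde-3-phosphate dehydrogenase gene, was called below 0 (-1.02, SE 0.14, adjusted p = 0.000111). Purine synthesis had 2 of 10 members called, ade10 (1.28, SE 0.12, adjusted p = 3.76e-06) and ade6 (1.06, SE 0.097, adjusted p = 3.65e-06), both above 0. That is 20%, beside 11.0% of all sense features. The call for ade6 was lost with total counts (0.95) and without wt replicate 1 or mot2∆ replicate 1. Amino acid biosynthesis had 41 tested members and a median of 0.63, with 6 called above 0 and 1 below, or 17.1% beside the same 11.0%. With total counts 2 were called above 0, and without wt replicate 1 this was 3. The homocysteine synthase gene met17 was at 591 and 497 CPM in wt, 685 and 786 in mot2∆, 200.1 and 185 in mamRNA∆, against 721 and 737 in the double mutant, a fall in mamRNA∆ that was not seen in the double mutant, with an interaction of 1.49 (SE 0.14; adjusted p = 5.22e-06). The arginine pathway gene arg5 (1.41, SE 0.11, adjusted p = 1.43e-06) and his2 (1.11, SE 0.10, adjusted p = 4.82e-06) had the next largest values above 0, and his2 was not called with total counts (0.99).

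Ribosome biogenesis factors, which process ribosomal RNA and assemble subunits in the nucleolus, lay above 0 as a group. Of 61 tested, 59 had an interaction above 0 and 23 were called, a number that was 15 with total counts and also 15 without wt replicate 2, and the median was 0.89. The called share was 37.7%, beside 11.0% of all sense features, of which 3032 of 5988 lay above 0. Most of the 61 did not change by a call in a single mutant: 2 were called lower in mamRNA∆ and 6 higher in the double mutant. The DEAD-box helicase gene dbp2 was at 163 and 187 CPM in wt, 137 and 174 in mot2∆, 157 and 134 in mamRNA∆, against 393 and 441 in the double mutant. Both double mutant libraries lay above all other libraries, and the interaction was 1.69 (SE 0.16; adjusted p = 6.43e-06). The helicase gene has1 was at 147 and 169.6 CPM in wt, 161 and 188 in mot2∆, 120.5 and 100 in mamRNA∆, against 314 and 336 in the double mutant, with an interaction of 1.42 (SE 0.15; adjusted p = 9.53e-06). For enp2 the levels were 55.8 and 69.4 CPM in wt, 37.3 and 41.8 in mot2∆, 29.2 and 26.8 in mamRNA∆, against 65.8 and 67.5 in the double mutant, a fall in mamRNA∆ that was not called in the double mutant, with an interaction of 1.92 (SE 0.14; adjusted p = 5.9e-07). The helicase gene dbp3 (1.73, SE 0.19, adjusted p = 1.45e-05) and sda1, outside the list (2.01, SE 0.15, adjusted p = 8.19e-07), were also highest in the double mutant. Cytosolic ribosomal protein genes moved less. Of 136 tested, 124 had an interaction above 0, their median was 0.33, and 2 were called, rpl1602 (1.52, SE 0.17, adjusted p = 2.17e-05) and rps2202 (1.02, SE 0.11, adjusted p = 1.9e-05), the latter not in 6 of 15 alternatives.

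Synergistic changes, in which the double mutant differed from wt and the single mutants did not or less, included the phosphate gene pho1. Among iron genes they included fip1, php4, abc3, frp2 and str3. Other genes of these lists are given beside them. Of those, frp1 was counted as a suppressed mamRNA∆ change, and tgp1 and fio1 met none of the definitions. The secreted acid phosphatase gene pho1 was at 4252 and 3503 CPM in wt, 4546 and 4796 in mot2∆, 3118 and 3004 in mamRNA∆, against 210.2 and 231 in the double mutant. The 2 double mutant libraries lay far below the other 6, and the interaction was -4.06 (SE 0.16; adjusted p = 2.72e-09). The glycerophosphodiester transporter gene tgp1 was at 91.6 and 81.4 CPM in wt, 58 and 57.2 in mot2∆, 13.3 and 15 in mamRNA∆, against 22 and 24.5 in the double mutant, a fall in mamRNA∆ of which less was left in the double mutant (1.30, SE 0.12, adjusted p = 4.66e-06). The phosphate transporter gene pho84 had an interaction of -0.45 (SE 0.17; adjusted p = 0.0472), and its level in the double mutant was called against wt, with a difference of -1.61 (SE 0.12). Of 7 tested phosphate genes, pho1 and tgp1 were the 2 called.

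Reductive iron uptake brings iron in through a ferric reductase (Frp1), a multicopper oxidase (Fio1) and a permease (Fip1). All 9 tested genes of the list had an interaction above 0, as 3032 of 5988 sense features did, with a median of 1.35, and 6 were called. The gene frp1 was at 17 and 14.3 CPM in wt, 11 and 16.4 in mot2∆, 4.12 and 3.84 in mamRNA∆, against 29.6 and 29.4 in the double mutant, a fall in mamRNA∆ and a level above wt in the double mutant, with an interaction of 3.08 (SE 0.23; adjusted p = 8.05e-07). The gene fip1 was at 189 and 151 CPM in wt, 98.2 and 193 in mot2∆, 102 and 99.2 in mamRNA∆, against 341 and 342 in the double mutant, with an interaction of 1.98 (SE 0.31; adjusted p = 0.000233). The gene fio1 was at 344 and 306 CPM in wt, 204 and 355 in mot2∆, 184 and 180.2 in mamRNA∆, against 635 and 615 in the double mutant, with an interaction of 2.00 (SE 0.25; adjusted p = 5.23e-05). In all 3 the double mutant libraries were close to each other and above every other library, and the 2 mot2∆ libraries lay further apart than those of any other genotype. The vacuolar ABC transporter gene abc3 (1.67, SE 0.19, adjusted p = 2.28e-05), the gene php4 of a CCAAT-binding repressor used under iron starvation (1.10, SE 0.13, adjusted p = 3.18e-05) and the glutaredoxin gene grx4 (1.35, SE 0.14, adjusted p = 9.11e-06) were the other 3, and fip1, php4 and abc3 were called higher than wt in the double mutant and in neither single mutant. A further ferric reductase gene, frp2, outside the list, was at 5.64 and 5.64 CPM in wt, 7.2 and 10 in mot2∆, 3.82 and 3.36 in mamRNA∆, against 25.4 and 25.9 in the double mutant, with an interaction of 2.22 (SE 0.22; adjusted p = 7.41e-06). The siderophore transporter gene str3 was at 4.09 and 5.28 CPM in wt, 66.3 and 185 in mot2∆, 5.01 and 4.01 in mamRNA∆, against 411 and 405 in the double mutant. It rose in mot2∆ and rose further in the double mutant, with an interaction of 1.78 (SE 0.59; adjusted p = 0.0268), but its 2 mot2∆ libraries lay apart, the interaction was 2.70 without mot2∆ replicate 2, and the call was lost with total counts, without either wt library and without mamRNA∆ replicate 2. It was the 1 of 6 siderophore and heme uptake genes called, 16.7% beside 11.0% of all sense features. Zinc and copper genes had 2 of 10 members called, both below 0, or 20% beside the same 11.0%. The metallothionein gene zym1 was at 10.5 and 10.9 CPM in wt, 54.9 and 55.1 in mot2∆, 10.2 and 10.4 in mamRNA∆, against 6.29 and 4.85 in the double mutant, a suppressed mot2∆ change (-3.24, SE 0.16, adjusted p = 1.58e-08), and the iron and zinc transporter gene fet4 was at 95.7 and 78.1 CPM in wt, 40.6 and 32.5 in mot2∆, 141 and 146 in mamRNA∆, against 21.5 and 21.5 in the double mutant, a fall in mot2∆ that was larger in the double mutant (-1.49, SE 0.16, adjusted p = 1.04e-05).

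Other synergistic changes were found in arg7 and its neighbours, eng1 and SPCC794.03. The argininosuccinate lyase gene arg7 was at 17.4 and 21.5 CPM in wt, 10 and 12.1 in mot2∆, 25.2 and 24.2 in mamRNA∆, against 2.81 and 2.77 in the double mutant, with an interaction of -2.32 (SE 0.19; adjusted p = 1.93e-06). Its neighbours on the chromosome behaved alike: the transcription factor gene SPBC1773.12 had an interaction of -2.79 (SE 0.19; adjusted p = 3.42e-07), the overlapping aromatic aminotransferase gene SPBC1773.13 one of -2.48 (SE 0.17; adjusted p = 3.6e-07), and dal52 one of -1.70 (SE 0.11). The septum glucanase gene eng1, which separates daughter cells, was at 43.4 and 47.1 CPM in wt, 41.8 and 52.4 in mot2∆, 36.8 and 43.5 in mamRNA∆, against 139.7 and 157 in the double mutant, with an interaction of 1.83 (SE 0.16; adjusted p = 2.52e-06). The thiamine transporter gene SPCC794.03 was at 328 and 334 CPM in wt, 246 and 299 in mot2∆, 218 and 218 in mamRNA∆, against 729 and 763 in the double mutant, with an interaction of 2.06 (SE 0.13; adjusted p = 1.62e-07), and thi9, another thiamine transporter gene outside the synergistic class, one of 1.30 (SE 0.12; adjusted p = 4.06e-06), the 1 of 9 thiamine genes called. That share of 11.1% was about the 11.0% of all sense features. Some further lists held few calls, in none of which the change was synergistic except for eng1. Of 18 cell wall glucan genes, eng1 and gas1 (1.11, SE 0.12, adjusted p = 1.14e-05) were called above 0 and mok14 below. That is 16.7%, beside 11.0% of all sense features. The gene gas1 was not called with total counts. Of 22 sterol genes only erg32 was called (1.22, SE 0.11, adjusted p = 2.98e-06), or 4.55% beside the same 11.0%. Of 21 RNAi and heterochromatin genes 3 were called, 14.3% beside the same 11.0%: the histone H3K9 methyltransferase gene clr4 below 0 (-1.40, SE 0.11, adjusted p = 1.41e-06), and the SHREC gene clr2 (1.30, SE 0.11, adjusted p = 1.57e-06) and the RNA-directed RNA polymerase gene rdp1 (1.04, SE 0.12, adjusted p = 2.64e-05) above 0, with rdp1 lost in 4 of 15 alternatives.

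In the additive class the interval of the interaction stayed inside 1 log2 unit. The class held 74 features lowered by mot2∆, mot2 itself among them, and 52 raised by it. Those with the largest interaction in the class mark its edge, and their intervals leave out 0. The sodium and proton antiporter gene sod2 was at 42.6 and 40.3 CPM in wt, 9.48 and 10.6 in mot2∆, 35.9 and 37.4 in mamRNA∆, against 14.2 and 14.9 in the double mutant, with an interaction of 0.71 (SE 0.12; adjusted p = 0.000481) and an interval of 0.44 to 0.97. The vacuolar polyphosphate gene nrf1 was at 573 and 488 CPM in wt, 153 and 174 in mot2∆, 284 and 269.7 in mamRNA∆, against 136 and 141 in the double mutant, with an interval of 0.43 to 0.98. The class V myosin gene myo51 was at 54.5 and 60.7 CPM in wt, 136 and 139 in mot2∆, 58 and 56.1 in mamRNA∆, against 83.7 and 84.1 in the double mutant, with an interval of -0.91 to -0.49, and the glyoxylase gene hsp3101 had an interaction of -0.74 (SE 0.12; adjusted p = 0.000257). The centromere gene cnl2 (0.43 to 0.98), the hexose transporter gene ght2 (0.41 to 0.90), the histidine synthesis gene SPAC3F10.09 (-0.93 to -0.46) and SPNCRNA.1443 (-0.89 to -0.44) were at the same edge. Of the 13 copies of the Tf2 retrotransposon, 5 were called higher in mot2∆ and 2 lower in mamRNA∆. The 13 had a median change of 0.97 in mot2∆, -0.93 in mamRNA∆ and 0.16 in the double mutant. Tf2-7 was at 12.6 and 15.3 CPM in wt, 31.8 and 21.8 in mot2∆, 6.19 and 7.34 in mamRNA∆, against 16.5 and 14.8 in the double mutant, and its interaction was 0.27 (SE 0.24; adjusted p = 0.387), with an interval of -0.26 to 0.80. The copies are near-identical, their reads may be shared, and 7 of the 13 passed the single mutant call that the additive class needs.

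Several groups had no called interaction, by edgeR with TMM scaling or by DESeq2. They were 14 RNA elimination factors, 7 Ccr4-Not subunits, 53 respiratory chain genes, 32 proteasome genes, 10 histone genes, 46 mitochondrial ribosomal features and the 13 Tf2 copies. An unadjusted p under 0.05 was reached by 5, 2, 14, 10, 7, 19 and 0 of them in that order, and an adjusted p under 0.05 by 4, 1, 12, 5, 3, 14 and 0. Over all sense features 11.0% were called, so no call in a list of 7 to 14 members lies near that share. With total counts 1 mitochondrial ribosomal feature was called, as were 2 without wt replicate 1. The mmi1 transcript was at 163 and 154 CPM in wt, 132 and 138 in mot2∆, 148 and 144 in mamRNA∆, against 188 and 192 in the double mutant, with an interaction of 0.61 (SE 0.089; adjusted p = 0.000149) that passed the adjusted p and not the fold threshold. The cap-binding gene cbc1 had an interaction of 0.13 (SE 0.10; adjusted p = 0.327), the Ccr4-Not scaffold gene not1 one of 0.25 (SE 0.11; adjusted p = 0.0778), and the deadenylase gene ccr4 one of -0.01 (SE 0.096; adjusted p = 0.948). The ATP synthase gene atp2 (0.08, SE 0.14, adjusted p = 0.681), the cytochrome bc1 gene qcr1 (-0.16, SE 0.14, adjusted p = 0.356), the proteasome genes rpn2 (-0.20, SE 0.11, adjusted p = 0.161) and mts4 (-0.00, SE 0.11, adjusted p = 0.995) and the histone genes htb1 (0.50, SE 0.11, adjusted p = 0.0036) and hht2 (0.33, SE 0.13, adjusted p = 0.0505) had high levels in their lists. In the mitochondrial ribosomal list, mrp1, which RefSeq names as the RNA of RNase MRP, had the highest level and an interaction of -0.89 (SE 0.15; adjusted p = 0.000339), and mrpl9 one of 0.40 (SE 0.11; adjusted p = 0.00969). The actin gene act1 had an interaction of 0.46 (SE 0.14; adjusted p = 0.0197).

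**Figure D5:**
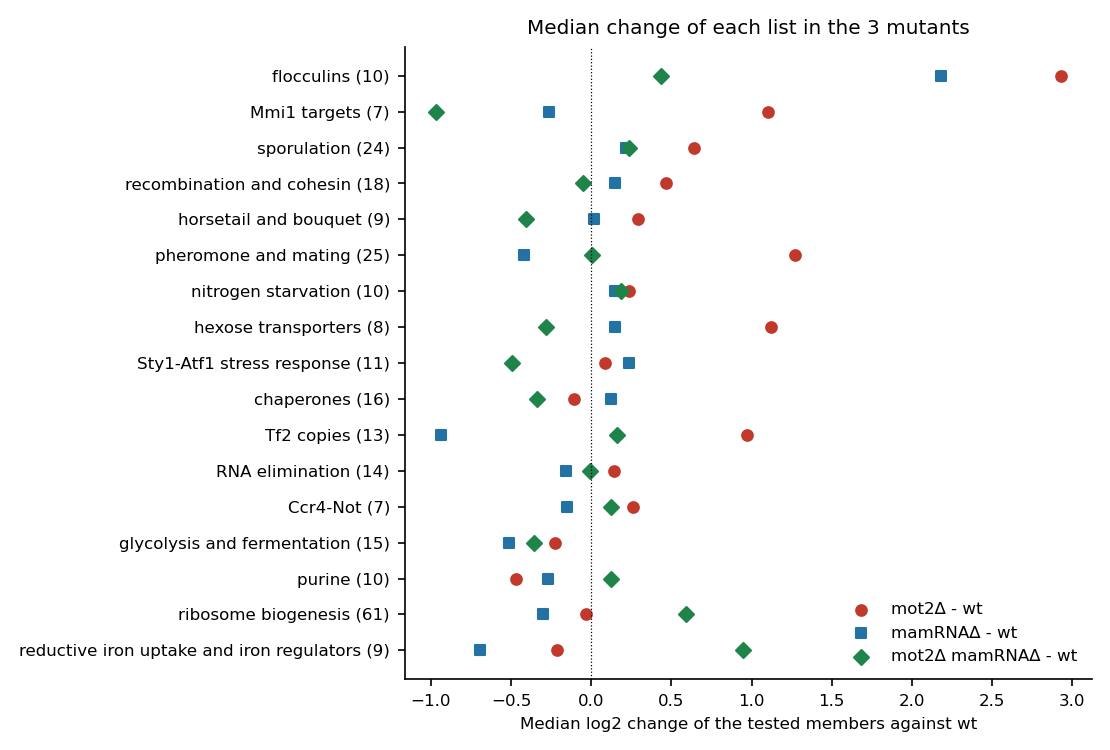
Median log2 change against wt of the tested members of 17 lists in mot2∆ (red circles), mamRNA∆ (blue squares) and mot2∆ mamRNA∆ (green diamonds), with the number of members in brackets. The pheromone list had medians of 1.27, -0.42 and 0.01, the Tf2 copies 0.97, -0.93 and 0.16, and the reductive iron list -0.22, -0.70 and 0.94, in that order of mutants.

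Non-coding RNAs held 139 called interactions among 708 tested SPNCRNA features, 91 below 0 and 48 above, with a median of -0.10. That is 19.6%, beside 11.0% of all sense features. The RNA SPNCRNA.601 was at 0.61 and 0.579 CPM in wt, 2.12 and 2.02 in mot2∆, 0.692 and 0.904 in mamRNA∆, against 0.0605 and 0.099 in the double mutant. SPNCRNA.136, which overlaps it in RefSeq, had nearly the same values, and both double mutant libraries of each RNA held at most 3 counts. With the double mutant set to that floor of 3 counts per library, the interactions were -4.87 for SPNCRNA.601 and -4.70 for SPNCRNA.136. SPNCRNA.1415 held at most 3 counts in wt, and with wt at the floor its interaction was -4.70. Above 0, SPNCRNA.1304 was under 1 CPM in every library, and with mot2∆ at the floor its interaction was 4.71, while the fitted value moved from 6.06 to 9.20 without mot2∆ replicate 1. SPNCRNA.240 was at 15.3 and 14.9 CPM in wt, 2.79 and 2.7 in mot2∆, 2.93 and 3.42 in mamRNA∆, against 4.69 and 4.89 in the double mutant, about as low in both single mutants and still low in the double mutant, with an interaction of 3.04 (SE 0.19; adjusted p = 1.77e-07). SPNCRNA.781 was at 5.45 and 5.64 CPM in wt, 17.4 and 19.9 in mot2∆, 25 and 23.4 in mamRNA∆, against 12.5 and 12.2 in the double mutant, raised in all mutants, with an interaction of -2.71 (SE 0.15; adjusted p = 5.6e-08). SPNCRNA.538 was raised in all 3 mutants too (-2.50, SE 0.18, adjusted p = 6.24e-07). Of 43 prl RNAs 8 were called below 0 and 1 above, 20.9% beside the same 11.0%, and the one above was prl62 (1.36, SE 0.21, adjusted p = 0.000273). The RNA prl46 held at most 3 counts in wt and the double mutant, and with both at the floor its interaction was -4.26, while the fitted value moved from -5.70 to -9.14 without wt replicate 2. The others with large values were prl31 (-2.83, SE 0.30, adjusted p = 1.25e-05), prl6 (-2.41, SE 0.22, adjusted p = 3.51e-06) and prl32 (-2.12, SE 0.47, adjusted p = 0.00275), and prl32 was -1.19 without mamRNA∆ replicate 2. Of 54 small nucleolar RNAs 8 were called below 0 and 2 above, 18.5% beside the same 11.0%, with a median of -0.48. Among those called were snR51b (-2.04, SE 0.43, adjusted p = 0.00211), snoZ30 (1.73, SE 0.18, adjusted p = 9.11e-06), snoU18 (-1.70, SE 0.36, adjusted p = 0.00216) and snoR39a (-1.56, SE 0.30, adjusted p = 0.00126). The small nucleolar RNA SPNCRNA.530 (3.14, SE 0.28, adjusted p = 3.51e-06) and SPNCRNA.543 (2.69, SE 0.50, adjusted p = 0.00092) also lay above 0. In RefSeq, SPNCRNA.240 overlaps lsk1, SPNCRNA.1304 overlaps cmt2, SPNCRNA.543 overlaps ykt6, snoU18 overlaps ero11 and snoR39a overlaps rlp7. The RNA prl32 overlaps SPCC417.15 and SPCC417.16. Reads of these coding genes cannot be told apart from those of the RNAs.

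Subtelomeric genes divided into both directions, 19 called below 0 and 18 above of 70 tested. The telomeric helicase gene tlh1 was at 10.2 and 13.3 CPM in wt, 14.5 and 14.8 in mot2∆, 0.725 and 0.424 in mamRNA∆, against 8.95 and 8.85 in the double mutant, a loss in mamRNA∆ that was not called in the double mutant, with an interaction of 3.67 (SE 0.27; adjusted p = 7.11e-07). Its neighbours SPAC212.08c (4.05, SE 0.39, adjusted p = 6.04e-06) and SPAC212.12 (3.33, SE 0.40, adjusted p = 3.48e-05) and the genes SPAC750.07c (4.02, SE 0.36, adjusted p = 3.15e-06), SPAC186.06 (3.94, SE 0.40, adjusted p = 9.1e-06) and SPBPB21E7.04c (4.28, SE 0.40, adjusted p = 4.47e-06) were lower than wt by a call in both single mutants. In the double mutant SPAC212.12, SPAC750.07c and SPAC186.06 were no longer called against wt, SPAC212.08c kept a difference of -1.11 (SE 0.21), and SPBPB21E7.04c one of -2.73 (SE 0.21). Below 0, the hydrolase family gene SPAC977.15 was at 15.8 and 16.9 CPM in wt, 17.7 and 8.49 in mot2∆, 190.3 and 182 in mamRNA∆, against 8.86 and 6.7 in the double mutant, raised in mamRNA∆ and lower than wt in the double mutant, with an interaction of -4.25 (SE 0.33; adjusted p = 9.54e-07). The dehydrogenase genes SPAC977.08 and SPBC1348.09 were under 3 CPM in every library, and with the genotypes at or under 3 counts set to that floor their interactions were -5.08 and -5.29. SPBPB2B2.15 had an interaction of -5.29 (SE 0.85; adjusted p = 0.000316), and SPBPB2B2.08 one of 2.62 (SE 0.47; adjusted p = 0.00066). These genes have repeated copies, and reads may be shared between them.

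Some called interactions of 1 sign came from neighbouring genes, a feature chosen after the values were seen. The order of genes was taken from RefSeq, where 5893 of 5988 sense features could be matched by name. Among 5059 matched coding genes there were 13 runs of at least 3 neighbours with called interactions of the same sign, with 59 genes in all. No chance rate was computed for such runs. Genes in runs are not all separate measurements. SPBC1773.12 overlaps SPBC1773.13, clr4 overlaps meu6, and reads may be shared between the near copies pfl6 and SPBC1348.08c. In SPAC977 and SPBC1348, runs of 6 genes each held the flocculins pfl6 and SPBC1348.08c, and the interactions ranged from -2.53 to -11.35 and from -2.73 to -11.55, part of them in genes at the floor. A further run of 6 went from SPAC977.15 to ght3, all below 0. Another joined isp5 with mmf2 (-3.24), gto1 (-3.57) and SPAC922.03 (-1.06). Further runs were SPBC1773.12 to dal52, and clr4, meu6 (-2.07) and SPBC428.10 (-1.35). Above 0, the longest run held 9 genes from SPBPB10D8.01 (2.23) to the amino acid transporter gene aat1 (1.04). Another held 4 from ppk18 (1.12) to pfl2. In a run of 3, tgp1 stood beside SPBC1271.08c (1.54) and SPBC1271.07c (1.67). Outside such runs, SPAPB24D3.07c was at 157 and 119 CPM in wt, 277 and 238 in mot2∆, 1009 and 874 in mamRNA∆, against 110.5 and 118 in the double mutant, a rise in mamRNA∆ that was not called in the double mutant. It and the overlapping SPNCRNA.865 had interactions of -3.94 (SE 0.18; adjusted p = 9.9e-09) and -3.87 (SE 0.17; adjusted p = 6.49e-09), and their reads cannot be told apart. The U4 small nuclear RNA gene snu4 was at 1.13 and 1.12 CPM in wt, 0.63 and 0.683 in mot2∆, 0.461 and 0.395 in mamRNA∆, against 3.63 and 3.99 in the double mutant, highest in the double mutant, with an interaction of 3.92 (SE 0.35; adjusted p = 3.41e-06), and SPBC215.06c one of 2.01 (SE 0.26; adjusted p = 5.29e-05).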

How the data were processed

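Per the labels and the study's methods, total RNA came from a hot acid phenol extraction, ribosomal RNA was removed and paired ends were sequenced. The submitters' processing notes name bcl2fastq 2.18.12, cutadapt 1.15 and Bowtie2, whose version is not given in the sources used here. The authors deposited raw counts of reads per annotated feature, in whole numbers, sense and antisense features apart. The genome build, the annotation, the use of strand and the treatment of reads with several matches are not given in the sources used here, so overlapping genes and near-identical copies can share counts.

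Counts were fitted in edgeR 4.0.16 (R 4.3.3) with TMM scaling and a filter on low counts (filterByExpr, minimum 10, minimum total 15), with 1 coefficient per genotype over all 8 libraries. Quasi-likelihood F tests were two-sided, with Benjamini-Hochberg adjustment over 6620 features, of which 5988 sense features are reported and 632 antisense features are not. Calls needed an adjusted p under 0.05 together with a log2 value beyond 1. The standard error is the log2 value divided by the square root of F, and intervals are at 95%. Groups at or under 3 counts in both libraries were set to that floor (0.0847 to 0.141 CPM) where named; floors cover counting error only. The script was tested on simulated data.

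The genotypes were taken from the labels. Alternatives were DESeq2 1.42.0, other scalings, other filters, a replicate block, other fold thresholds, and leaving out each library. The 38 gene lists, the classes and the named genes were chosen with earlier results of these data known. The text names a panel (mot2, mei2, mmi1, snoU14, omt3, act1 and the Mmi1 targets), up to 4 called members per list with the largest interaction (2 with the highest level where none was called), and the 4 largest per class and direction with a mean of at least 1 CPM. Further genes were named after their values were seen. RefSeq (ASM294v3) was used for names, products, gene order and overlaps, with no coordinates. The mamRNA feature was not analysed here.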

Additional observations from a re-analysis of the deposited data

Results flagged for a closer look

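The difference between the mot2∆ effect without and with mamRNA was itself tested, as the interaction term. By that test 271 sense features differed with an interaction above 0 and 387 with an interaction below 0. No group of this design was large enough for a check of single outlying libraries.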

How the results depend on the processing

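The count of 658 called interactions was 667 with RLE size factors, 672 with total counts, 628 with DESeq2, 666 without a filter, 598 with at least 10 counts in every library and 664 without antisense features. Leaving out each library in turn gave 613 to 725 called interactions, 245 to 304 above 0 and 360 to 427 below. The classes then held 116 to 150 suppressed mot2∆ changes, 86 to 95 suppressed mamRNA∆ changes, 67 to 91 synergistic, 333 to 436 other, 118 to 150 additive and 171 to 233 undetermined features. With at least 10 counts in every library 124 features were undetermined, since fewer features were tested. Without a fold threshold there were 2851 calls (1473 above 0, 1378 below), with 1248 suppressed mot2∆ changes, 667 suppressed mamRNA∆ changes, 529 synergistic and 1833 additive features. With a threshold of 2 there were 153 calls (35 above 0, 118 below), with 37 suppressed mot2∆ changes, 19 suppressed mamRNA∆ changes, 16 synergistic, 81 other, 9 additive and 77 undetermined features. Of 123 named features with a called interaction, 6 lost it with total counts, 1 with at least 10 counts in every library, 1 without antisense features and at most 5 without any 1 library. The call was lost under at least 1 of these for ade6, ctt1, gas1, his2, lkh1, rdp1, rps2202, sme2, ste11 and str3. No called interaction of a named feature changed direction, and list medians near 0, such as those of RNA elimination, respiratory, proteasome and mitochondrial ribosomal genes and Tf2 copies, changed sign with total counts.

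The labels do not say whether libraries with the same replicate number share more than that number. Deviations of same-numbered libraries correlated at -0.108 to 0.163 across features, and with 2 libraries per genotype this cannot decide it. With the replicate block 665 interactions were called, 274 above 0 and 391 below, 656 of them shared with the fit without it, and no named call changed. With 2 libraries per genotype the spread is estimated mainly from all features together, and features under 1 CPM rest on few counts.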
